A study of Rattus norvegicus with 4 samples.

Results

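Bulk RNA sequencing was used to describe osteoarthritic rat synovium, the tissue that lines the joint, without added cells. Of the 4 libraries of the study, 2 carry the treatment label for injection with PBS, a salt buffer, and these were taken; the other 2 came from osteoarthritic synovium that had received cells that the labels call human AdMSCs or human SyMSCs. The PBS libraries are named here by their titles, Ad mix and Sy mix; the labels do not explain the word mix. All 4 libraries share the disease label osteoarthritis, and the day of collection is stated only for the cell injections, as the day after. The strain, age and sex of the rats, the way osteoarthritis was brought about, and whether a library holds 1 animal or a pool could not be taken from the labels. The title of the series sets synovium before injection against synovium after it, whereas these libraries are labelled as given PBS.

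Synovium has a lining layer of macrophages and fibroblasts that secrete lubricin and hyaluronan into the joint fluid. Beneath it lies the sublining, a looser layer of fibroblasts, blood and lymph vessels, nerves, mast cells and fat. Tendon, ligament, muscle, fat pad and bone adjoin it, so tissue taken from a joint can hold parts of its neighbours.

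Values are TPM, a length-normalised share of each library's transcripts scaled to a fixed total. TPM keeps no read depth, so the counting error of a value is unknown. With 1 library on each side, no test of the difference between the PBS libraries exists, and every difference below describes these 2 libraries. Genes with at least 5 TPM in either PBS library (10429 genes) were compared by the log2 ratio of TPM + 1, Sy mix over Ad mix, so a positive value means a higher level in the Sy mix library. A ratio of at least 2, a log2 ratio of 1 in size, was used as the mark for a difference. The Ad mix library held 10135 genes at 5 TPM or more and the Sy mix library 10033.

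Matrix, blood and ribosomal genes led the list of abundant transcripts. The highest mean over the PBS libraries belonged to Hba1 (gene ID 25632), an alpha-globin gene of red blood cells, with 20161 TPM in the Ad mix library and 7064 TPM in the Sy mix library. Sparc (gene ID 24791), a collagen-binding matrix glycoprotein, stood at 14128 and 12856 TPM in the same order. Apoe, the lipid carrier apolipoprotein E, was at 9038 and 11843 TPM. Hba1 was the highest gene of the Ad mix library and was outranked in the Sy mix library by matrix, lipid, immune, ribosomal and other genes. Col1a1, a chain of type I collagen, stood at 12541 and 8181 TPM, and Col3a1, the chain of type III collagen, at 10509 and 9810.3 TPM. Cst3, the protease inhibitor cystatin C, was at 8762 and 11586 TPM. Lyz2, the macrophage lysozyme gene, was at 8163 and 9237 TPM. Hba1 was the only gene of the leading 30 past the 2-fold mark, and the log2 ratios of the other 29 were at most 0.62 in size.

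Of these 30 genes, 10 encode ribosomal proteins, led by Rps29 at 9465 and 9781 TPM. Others encode the matrix proteins fibronectin (Fn1, 5312 and 6162 TPM) and decorin (Dcn, 5174 and 5057 TPM), the lysosomal protease cathepsin B (Ctsb, 5293 and 4848 TPM) and vimentin (Vim, 4774 and 5198 TPM), the intermediate filament of mesenchymal cells. Another abundant row has only an identifier for a symbol, NEWGENE_621351, at 6610 and 5325 TPM; the RefSeq gene table used for names does not hold its gene ID. The leading 100 genes of each library together took 39.9% of the Ad mix and 39.8% of the Sy mix transcripts.

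**Figure D1:**
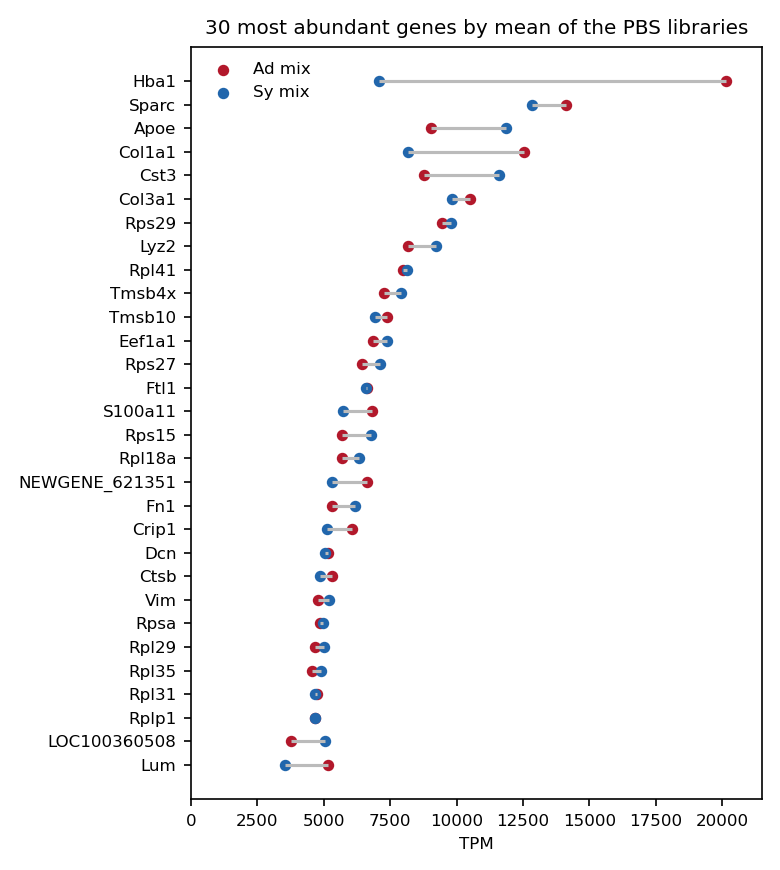
TPM (linear axis) of the 30 genes with the highest mean over the PBS libraries; red points are the Ad mix library, blue points the Sy mix library and grey lines join them. Hba1 shows the widest gap, 20161 against 7064 TPM, and most other pairs lie close together.

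The defining genes of synovium were present in both libraries. Prg4, which encodes the joint lubricant lubricin, stood at 3930 and 3765 TPM in the Ad mix and Sy mix libraries. Mmp3, the matrix protease stromelysin of lining fibroblasts, was at 594 and 550.0 TPM, and Clic5, a lining marker, at 63.3 and 73.5 TPM. The 16 lining genes summed to 7425 ± 242 TPM (SD, n = 2). The 25 sublining fibroblast genes summed to 7722 ± 634 TPM (SD, n = 2). Their highest members were the actin-severing gene Gsn (896 and 1786 TPM), the bridging ligand gene Gas6 (828 and 1046 TPM) and Igfbp6, a binding protein of insulin-like growth factors (778 and 819 TPM).

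Ribosomal and matrix lists were among those with the highest summed levels. The 78 ribosomal protein genes took 17.4% of all transcripts in the Ad mix library and 19.1% in the Sy mix library. Of the matrix lists, the 35 collagen chains took 2.82% and 2.24%, the 41 other matrix proteins 3.09% and 2.91%, and the 16 small leucine-rich proteoglycans, which regulate collagen fibrils, 1.75% and 1.45%. Monocyte and macrophage genes took 1.43% and 1.63%, with Lyz2 as their highest member. Lipid-associated macrophage genes took 1.93% and 2.19%, led by Apoe and Ctsb, and resident synovial macrophage genes 1.71% and 1.63%, mostly through Sparc, which fibroblasts also express. Erythroid genes took 2.85% and 1.05%. Mural and smooth muscle genes summed to 4624 and 5809 TPM, led by Tagln (1481 and 2064 TPM), and general endothelial genes to 2832 and 2948 TPM, led by the water channel gene Aqp1 (906 and 818 TPM). Lymphocyte genes were low: the 27 T and NK cell genes summed to 256 and 266 TPM, of which Cd4, a gene that rat macrophages also express, gave 174 and 205 TPM, while the T cell receptor subunit gene Cd3e was at 4.36 and 6.24 TPM.

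Some defining genes of several other cell types were near or under detection. Among cartilage genes, Col2a1, the collagen of hyaline cartilage, stood at 0.58 and 0.53 TPM, while Acan, the cartilage proteoglycan aggrecan, was at 47.4 and 25.2 TPM. The basal keratinocyte gene Krt5 was listed at 0 in both libraries, and the 14 skin genes summed to 43.4 TPM in each, of which Sbsn gave 33.4 and 34.0 TPM. Pax7, the marker of muscle stem cells, was listed at 0 in both libraries.

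**Figure D2:**
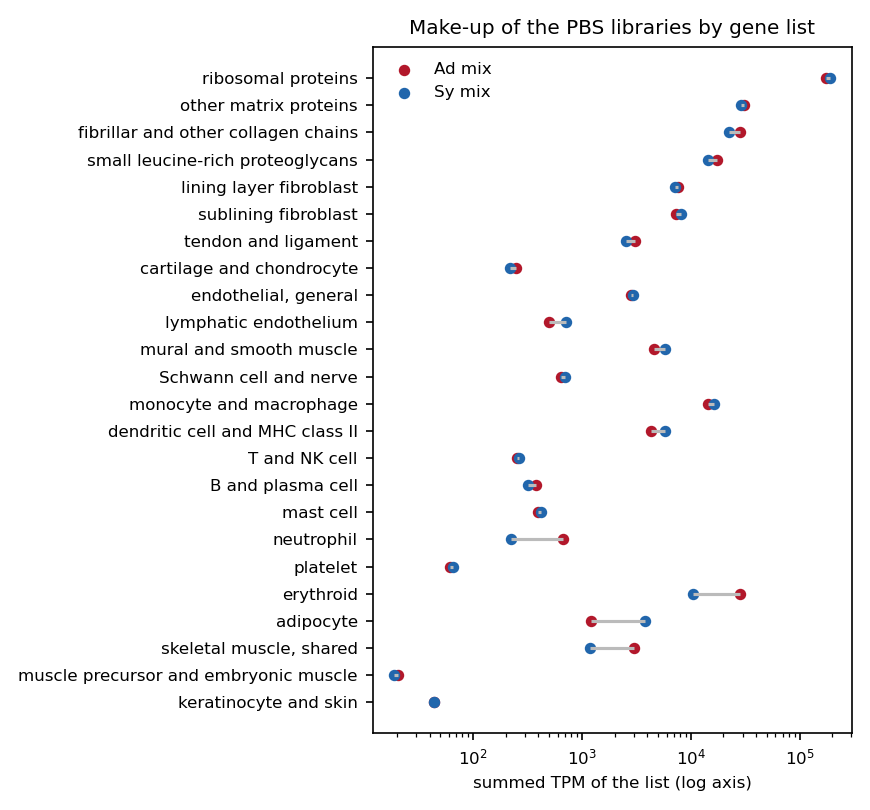
Summed TPM of each gene list (log axis) in the Ad mix library (red) and the Sy mix library (blue), with grey lines joining each pair. Ribosomal, matrix and macrophage lists lie close together, while the adipocyte, erythroid, neutrophil and skeletal muscle lists are spread.

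The libraries differed in few genes. Of the 10429 genes, 100 (0.959%) were at least 2-fold higher in the Sy mix library and 135 (1.29%) at least 2-fold higher in the Ad mix library, 2.25% together. The ratio was within 1.5-fold for 94.0% of the genes, and the median log2 ratio was -0.03. Across these genes the Pearson correlation of log2(TPM + 1) was 0.97, a description over genes that share the 2 libraries and are not independent. At a ratio of 4, 37 genes were higher in the Sy mix and 40 in the Ad mix library. Just inside the mark for the Sy mix library lay Lipe, the hormone-sensitive lipase gene (log2 ratio 1.01), and just outside it Gsn (0.99). On the other side Racgap1, a gene of cell division, lay just inside (-1.01) and Tmem52 just outside (-0.99).

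**Figure D3:**
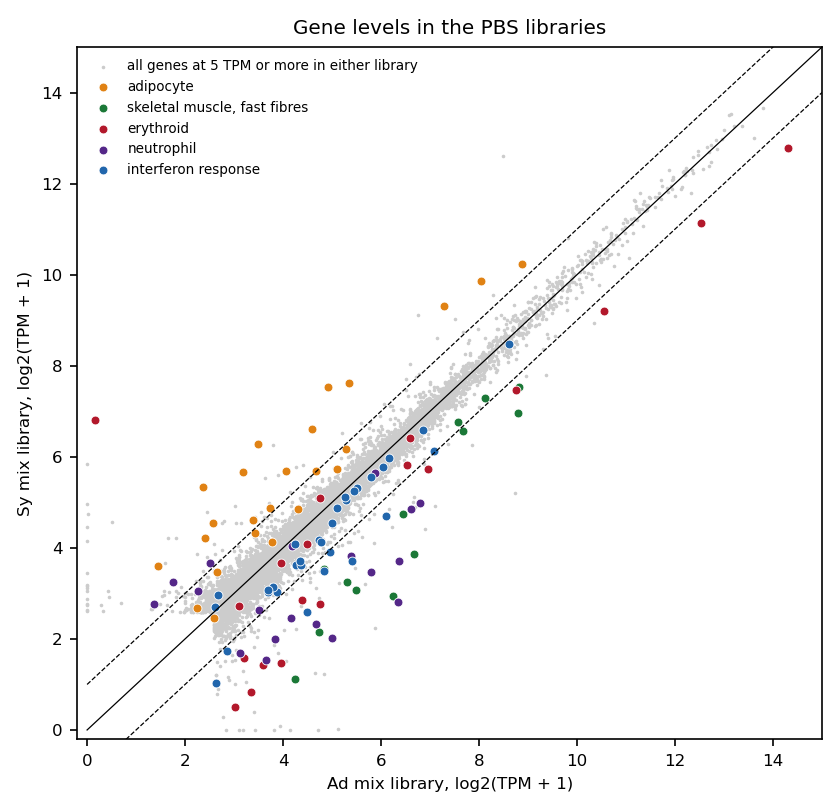
Level of each gene at 5 TPM or more in either PBS library, as log2(TPM + 1) in the Ad mix library (horizontal) and the Sy mix library (vertical); colours mark 5 gene lists, the solid line equal levels and the dashed lines a ratio of 2. Of the coloured genes, 16 of 24 adipocyte genes lie above the upper dashed line, and 11 of 13 fast-fibre, 12 of 19 erythroid and 12 of 19 neutrophil genes below the lower one.

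Adipocyte genes formed the largest listed group on the Sy mix side. Of 28 adipocyte genes in the table, 24 were at 5 TPM or more in either library, and 16 of the 24 were at least 2-fold higher in the Sy mix library, none lower, against 0.959% of all genes. Their median log2 ratio was 1.49, against -0.03 for all genes compared. Among the 16, Scd, Plin1, Aqp7 and Pck1 reached 5 TPM in the Sy mix library alone. Adipoq (gene ID 246253), the fat cell hormone adiponectin, stood at 39.7 TPM in the Ad mix and 195 TPM in the Sy mix library (log2 ratio 2.27). Fabp4, the fatty acid binding protein of adipocytes, was at 469 and 1198 TPM (1.35). Cfd, the complement factor adipsin secreted by fat, was at 263 and 935 TPM (1.83). These abundant fat genes were all higher in the Sy mix library. In bulk tissue, fewer cells of a type and less RNA per cell cannot be told apart.

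Genes of fat synthesis and storage showed the largest ratios of the list. The desaturase gene Scd stood at 4.13 and 39.1 TPM in the Ad mix and Sy mix libraries (log2 ratio 2.97), the hormone gene Retn, resistin, at 10.3 and 76.3 TPM (2.78), and Thrsp, a regulator of fatty acid synthesis, at 29.4 and 183 TPM (2.60). The lipid droplet genes Cidec (8.06 and 49.9 TPM, 2.49) and Plin1 (4.92 and 22.3 TPM, 1.97) were in the same direction. Pparg, the transcription factor that directs fat cell formation, was not past the mark, at 18.8 and 27.7 TPM, nor was the lipase gene Lpl at 33.5 and 52.3 TPM, nor the carboxylase gene Acaca at 5.02 and 4.52 TPM. Outside the list, genes that were noticed after their values were seen included the retinol carrier gene Rbp4 (95.3 and 260.4 TPM), the acyl-CoA synthetase gene Acsl1 (13.8 and 47.5 TPM), the angiotensin precursor gene Agt (11.5 and 45.2 TPM) and the adipocyte gene Adig (7.78 and 22.3 TPM). Gpihbp1, which anchors lipoprotein lipase on capillaries, was at 31.4 and 68.4 TPM (1.10). It was the only one of 10 vein and capillary genes past the mark, against 2.25% of all genes.

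Skeletal muscle genes were higher in the Ad mix library. Of 39 shared muscle genes in the table, 20 were at 5 TPM or more in either library and 17 of these were at least 2-fold higher in the Ad mix library, against 1.29% of all genes; their median log2 ratio was -1.68. Acta1 (gene ID 29437), skeletal muscle actin, stood at 663 TPM in the Ad mix and 223 TPM in the Sy mix library (log2 ratio -1.57). Mylpf, a light chain of fast myosin, was at 446 and 124 TPM (-1.84), and Ckm, muscle creatine kinase, at 230.5 and 75.9 TPM (-1.59). Muscle transcripts were thus measured in both libraries and lower in the Sy mix library. Des, the filament gene that smooth muscle also expresses, did not follow, at 206 and 199 TPM. Among the 17, Actn2, Ampd1 and Mybpc2 reached 5 TPM in the Ad mix library alone.

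The list of fast-fibre genes showed the same direction, but most of its genes are also in the shared list. Mylpf, Tnnc2, Tnni2, Tnnt3, Atp2a1, Pvalb, Mybpc2, Casq1 and Myoz1 are in both, so the counts of these lists are not independent. Of 14 fast-fibre genes, 13 were at 5 TPM or more in either library, all 13 were higher in the Ad mix library and 11 of them by at least 2-fold, against 1.29% of all genes, with a median log2 ratio of -1.84. The fast myosin heavy chain genes Myh4 (74.96 and 6.67 TPM, log2 ratio -3.31) and Myh1 (17.99 and 1.17 TPM, -3.13) and the fast calcium pump gene Atp2a1 (101 and 13.6 TPM, -2.81) had the largest ratios of the list. Myh1 and Mybpc2 reached 5 TPM in the Ad mix library alone. Tnnt3, a fast troponin gene, stood at 278 and 155 TPM and the calcium buffer gene Pvalb at 189 and 107 TPM, both short of the mark. The 11 slow-fibre genes did not follow this direction: they summed to 344 and 322 TPM, and the 3 at 5 TPM or more in either library were all short of the mark, with a median log2 ratio of -0.07. Most of that sum came from Tpm3, a tropomyosin gene that other cells also express (266 and 241 TPM), while Myh7, the slow myosin heavy chain, was at 0.19 and 0.67 TPM. Myosin heavy chain genes are close paralogs, so the split of reads among them is uncertain.

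The promoter of Acta1 is shown because it carries a CArG box, the binding motif of serum response factor in actin genes, given in capitals. The 250 bases before the start site are from RefSeq, build GRCr8 (chr19:68784195-68784444, minus strand).
Acta1: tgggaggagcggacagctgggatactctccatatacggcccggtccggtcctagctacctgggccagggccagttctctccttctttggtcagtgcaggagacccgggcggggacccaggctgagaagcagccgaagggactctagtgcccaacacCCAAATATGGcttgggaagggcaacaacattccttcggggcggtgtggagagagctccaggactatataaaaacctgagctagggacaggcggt
Searched on both strands, a CArG box was found in 1 of 13 fast-fibre, 2 of 32 shared muscle and 0 of 14 mural and smooth muscle promoters, and in 4 of 19 promoters of immediate early genes, against 1.5% of 27457 promoters of the same length. A match describes these letters and is not a binding site.

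Red blood cell genes were also higher in the Ad mix library. The 7 globin rows of the erythroid list took 2.82% of all transcripts in the Ad mix and 1.02% in the Sy mix library. With a beta-globin-like row outside the list, LOC100134871 (Hbbl1 in RefSeq, 1301 and 490 TPM, log2 ratio -1.41), the shares were 2.95% and 1.07%. Hba2 stood at 5947 and 2240.0 TPM (log2 ratio -1.41) and the beta-globin gene Hbb at 1492 and 592 TPM (-1.33), beside the Hba1 values above. Globin genes are near-identical copies, so their separate levels are uncertain. One globin row went the other way: the row whose gene ID RefSeq names Hbb-bs (LOC689064) was at 0.12 TPM in the Ad mix and 111 TPM in the Sy mix library.

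Genes of red cell precursors showed ratios in the same direction. Of a list of 16 such genes without globins, 6 were at 5 TPM or more in either library and all 6 were at least 2-fold higher in the Ad mix library, against 1.29% of all genes. Only Ahsp and Alas2 reached 5 TPM in both libraries; the other 4 passed through the library where they are high. Hemgn, a nuclear protein of erythroid precursors, stood at 7.15 TPM in the Ad mix and 0.42 TPM in the Sy mix library (log2 ratio -2.52). Slc4a1, the anion exchanger of the red cell membrane, was at 9.22 and 0.79 TPM (-2.51). Ahsp, a chaperone of alpha-globin, was at 26.2 and 5.78 TPM (-2.0), and Alas2, which starts heme synthesis in red cells, at 20.01 and 6.22 TPM (-1.54). The summed level of all 16 genes was 109 TPM in the Ad mix and 20.5 TPM in the Sy mix library.

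The promoter of Hba1 is shown as that of the most abundant gene, with the letters TGATAA, a form of the motif bound by GATA factors of erythroid cells, in capitals. The 250 bases before the start site are from RefSeq, build GRCr8 (chr10:15842581-15842830, minus strand).
Hba1: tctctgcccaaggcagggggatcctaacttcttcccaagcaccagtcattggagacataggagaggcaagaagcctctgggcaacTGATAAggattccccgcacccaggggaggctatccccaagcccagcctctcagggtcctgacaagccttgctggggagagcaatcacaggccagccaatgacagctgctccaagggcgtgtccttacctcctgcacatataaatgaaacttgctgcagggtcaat
The letters AGATAA or TGATAA occurred on either strand in 9 of 23 erythroid promoters, among them those of Alas2, Klf1 and Rhd, against 16.6% of all 27457 promoters.

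Neutrophil genes were found on both sides. Of 27 neutrophil genes, 19 were at 5 TPM or more in either library; 12 of these were at least 2-fold higher in the Ad mix library and 3 at least 2-fold higher in the Sy mix library, against 1.29% and 0.959% of all genes. Genes of granule proteins, which neutrophils make mostly as precursors in the marrow, were on the Ad mix side. Ngp, neutrophilic granule protein, stood at 80.8 TPM in the Ad mix and 5.97 TPM in the Sy mix library (log2 ratio -3.55). The defensin genes Np4 (82.1 and 12.1 TPM, -2.67), Defa5 (54.2 and 10.1 TPM, -2.31) and RatNP-3b (30.8 and 3.03 TPM, -2.98) went with it, as did the antimicrobial gene Camp (24.4 and 4.0 TPM, -2.35). The granule enzymes myeloperoxidase (Mpo, 16.8 and 4.47 TPM, -1.70) and neutrophil elastase (Elane, 11.6 and 1.88 TPM, -2.12) were also higher in the Ad mix library. Among the 12, RatNP-3b, Camp, Mpo, Elane, Ctsg and Mmp8 reached 5 TPM in the Ad mix library alone. Defensin genes are close paralogs and their separate levels are uncertain.

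Receptors of mature neutrophils were on the Sy mix side at low levels. Cxcr2, the receptor of neutrophil chemoattractants, stood at 1.58 TPM in the Ad mix and 5.81 TPM in the Sy mix library (log2 ratio 1.40), the decoy receptor gene Il1r2 at 2.38 and 8.45 TPM (1.48) and the growth factor receptor gene Csf3r at 4.73 and 11.7 TPM (1.15). All 3 reached 5 TPM in the Sy mix library alone. S100a8 and S100a9, the abundant alarmin genes of neutrophils and monocytes, followed the granule genes, at 109 and 30.7 TPM (-1.80) and at 96.7 and 27.8 TPM (-1.76). Lcn2, a granule gene that other cells also express, was short of the mark, at 57.7 and 48.7 TPM. Genes of other marrow lineages were low: the eosinophil granule gene Prg2 stood at 15.8 and 1.85 TPM (-2.56), the B lineage gene Cd79a at 5.39 and 0.87 TPM (-1.77) and the precursor B cell gene Vpreb1 at 2.31 and 0.70 TPM. Prg2 and Cd79a reached 5 TPM in the Ad mix library alone. Of 7 B and plasma cell genes at 5 TPM or more in either library, only Cd79a was past the mark, against 2.25% of all genes. Of these 7, 3 had a log2 ratio above 0 and 4 below it, with a median of -0.26. The early progenitor genes Rag1 and Dntt were under 0.3 TPM in both libraries.

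**Figure D4:**
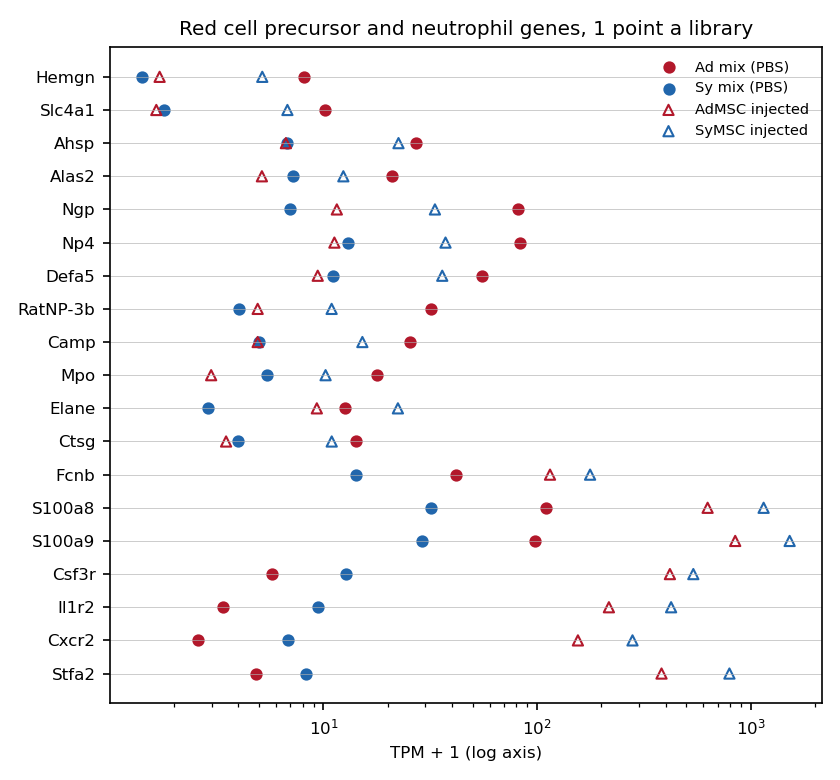
TPM + 1 (log axis) of red cell precursor genes, neutrophil granule genes, S100a8 and S100a9, 3 receptor genes of mature neutrophils and the stefin gene Stfa2; filled circles are the PBS libraries and open triangles the injected ones, red for Ad titles and blue for Sy titles. Precursor and granule genes are higher in the Ad mix than in the Sy mix library, and Csf3r, Il1r2, Cxcr2 and Stfa2 are higher in the Sy mix library and far higher in both injected libraries.

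These precursor and granule genes were set beside the injected libraries, which share no library with the PBS pair. Hemgn stood at 0.71 TPM in the AdMSC and 4.17 TPM in the SyMSC library, and Ngp at 10.6 and 32.3 TPM. Summed over 10 granule genes (Ngp, Np4, Defa5, RatNP-3b, Camp, Mpo, Elane, Ctsg, Fcnb and Prtn3), the level came to 358 TPM in the Ad mix, 57.95 TPM in the Sy mix, 164 TPM in the AdMSC and 346 TPM in the SyMSC library. The 7 globin rows took 0.722% of the AdMSC and 1.52% of the SyMSC transcripts. Fcnb alone gave 114 and 176 TPM of the sums in the injected libraries. Each of these 10 granule genes, and each of Hemgn, Slc4a1, Ahsp and Alas2, was higher in the Ad mix than in the Sy mix library and lower in the AdMSC than in the SyMSC library. The 10 were chosen after their values were seen and leave out Lcn2. The list of 20 marrow progenitor and granule genes summed to 504 TPM in the Ad mix, 359 TPM in the Sy mix, 361 TPM in the AdMSC and 793 TPM in the SyMSC library. Of its 8 genes at 5 TPM or more in either PBS library, 6 were at least 2-fold higher in the Ad mix library, against 1.29% of all genes.

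Interferon response genes leaned towards the Ad mix library. Of 39 in the table, 31 were at 5 TPM or more in either library, 29 of them had a log2 ratio below 0 and 7 were at least 2-fold higher in the Ad mix library, against 1.29% of all genes, with a median of -0.61. Mx1, an antiviral GTPase, stood at 21.3 TPM in the Ad mix and 5.0 TPM in the Sy mix library (log2 ratio -1.90). The ubiquitin-like gene Isg15 was at 41.7 and 12.1 TPM (-1.71), Irf7, the transcription factor that amplifies interferon production, at 67.8 and 25.0 TPM (-1.41), and Mx2 at 27.5 and 10.2 TPM (-1.35). Outside this list, the chemokine list holds Cxcl10, an interferon-induced chemokine for T cells, which was at 50.3 and 8.16 TPM (-2.49). Ifi27, the most abundant gene of the list, was short of the mark at 393 and 356 TPM. Rsad2, a gene of the list past the mark, reached 5 TPM in the Ad mix library alone. Reads of the near-identical Mx copies may have been split between them, so each level is uncertain.

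The promoters of Cxcl10 and Irf7 are shown for the interferon-stimulated response element, searched on both strands as the letters GAAA, any 2 bases and GAAA again, and given in capitals. They are the 250 bases before the start site from RefSeq, build GRCr8 (Cxcl10 at chr14:15988816-15989065, plus strand; Irf7 at chr1:205800024-205800273, minus strand, where the match is on the opposite strand).
Cxcl10: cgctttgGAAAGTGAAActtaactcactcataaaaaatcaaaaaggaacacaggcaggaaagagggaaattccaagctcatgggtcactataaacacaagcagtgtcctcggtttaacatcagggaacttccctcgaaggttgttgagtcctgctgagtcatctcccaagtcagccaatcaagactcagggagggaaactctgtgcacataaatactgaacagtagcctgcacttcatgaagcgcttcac
Irf7: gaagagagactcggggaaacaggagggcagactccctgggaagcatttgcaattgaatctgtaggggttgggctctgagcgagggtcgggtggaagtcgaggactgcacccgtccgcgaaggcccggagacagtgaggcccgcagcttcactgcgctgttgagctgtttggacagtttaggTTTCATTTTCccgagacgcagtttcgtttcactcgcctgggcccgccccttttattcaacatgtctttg
This element occurred in 17 of 27 promoters of the interferon response list, which does not hold Cxcl10, against 3.29% of all 27457 promoters. Promoters with it included those of Rsad2 and Ifit3, both past the mark (log2 ratios -1.62 and -1.06), and those of Gbp2 and Ifi27, which were not (-0.18 and -0.14). A further search, for the letters CCAAT in adipocyte promoters, found them in 5 of 17 (29.4%), against 34.3% of all 27457 promoters.

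Tendon and collagen genes included a few that were higher in the Ad mix library. Of 11 tendon and ligament genes at 5 TPM or more in either library, 7 had a log2 ratio below 0 and 4 above it, and 2 were past the mark, both higher in the Ad mix library, against 1.29% of all genes: Kera, the proteoglycan keratocan, at 118 and 20.4 TPM (log2 ratio -2.47) and Chad, chondroadherin, at 57.1 and 16.3 TPM (-1.74). Tnmd, the tendon marker tenomodulin, stood at 117 and 61.2 TPM and Thbs4, a thrombospondin of tendon, at 752 and 400 TPM, both short of it. Among the 4 on the other side were Comp, a cartilage and tendon matrix protein (561 and 650 TPM), and Prelp (593 and 649 TPM). Among 23 collagen chains at that level, 16 had a log2 ratio below 0 and 7 above it. Only Col12a1, a collagen on fibril surfaces, was past the mark, at 42.8 and 19.01 TPM (-1.13), against 2.25% of all genes. Of 39 other matrix protein genes at that level, 16 had a log2 ratio above 0 and 23 below it, with a median of -0.05. Only 2 of the 39 were past the mark, against 2.25% of all genes. They were Tnn, tenascin-N, at 497 and 218 TPM (-1.18) and Smoc2 at 74.3 and 35.2 TPM (-1.06). From the protease list, Adam12, a metalloprotease of remodelling connective tissue, was at 33.8 and 15.4 TPM (-1.08). Lrrc15, a gene of activated fibroblasts that was picked after its values were seen, was at 70.5 and 27.9 TPM (-1.31). Abundant fibril genes were short of the mark, with Lum, lumican, at 5162 and 3545 TPM and Bgn, biglycan, at 4447 and 3782 TPM.

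Immediate early genes, which cells switch on within minutes of a stimulus, leaned towards the Sy mix library. Of 24 at 5 TPM or more in either library, 21 had a log2 ratio above 0 and 3 were past the mark, all higher in the Sy mix library, against 0.959% of all genes. Fos stood at 180.2 TPM in the Ad mix and 522 TPM in the Sy mix library (log2 ratio 1.53), Fosb at 12.9 and 75.9 TPM (2.47) and Jun at 109 and 226 TPM (1.05). The inducible heat shock genes Hspa1a (5.72 and 22.3 TPM, 1.79) and Hspa1b (listed as LOC108348108, 139 and 392 TPM, 1.49) were the only 2 of 16 heat shock genes past the mark, against 2.25% of all genes. Hspa1a and Hspa1b are near-identical copies.

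Proliferation genes were slightly higher in the Ad mix library, 27 of 28 with a log2 ratio below 0 and a median of -0.43, but only Nusap1, a spindle protein, was past the mark (15.6 and 6.91 TPM, -1.07). Genes of several cell types of the synovium were short of the mark. None of 14 lining fibroblast genes, 25 general endothelial genes or 21 mural genes at 5 TPM or more was past the mark. The same held for 16 resident macrophage genes, 7 mast cell genes and 37 nuclear genes of oxidative phosphorylation. The share over all genes was 2.25%, so lists of these sizes could hold none without standing apart. The medians of these lists lay between -0.05 (lining) and 0.34 (resident macrophage). Resident macrophage genes were above 0 in 14 of 16 cases, among them Folr2 (226 and 301 TPM), Vsig4 (35.8 and 44.9 TPM) and Cd163, the hemoglobin scavenger receptor (13.4 and 19.7 TPM). Of 25 monocyte and macrophage genes only Fcgr3a, an Fc receptor, was past the mark, at 10.1 and 3.13 TPM (-1.42).

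Inflammatory cytokine genes were low in both libraries. Il1b stood at 3.67 and 5.98 TPM, Il6 at 1.06 and 1.67 TPM and Tnf at 1.40 and 2.41 TPM in the Ad mix and Sy mix libraries. None of 11 cytokine genes at 5 TPM or more was past the mark. Against 2.25% of all genes, a list of this size could hold none without standing apart. The highest were Tgfb1 (131 and 129 TPM), Tgfb3 (128 and 107 TPM) and the alarmin gene Il33 (101 and 108 TPM). Chemokines differed in both directions: of 20 at that level, 6 were past the mark, 3 on each side, against 2.25% of all genes. Cxcl10, Ccl12 (13.9 and 2.22 TPM) and Ccl5 (7.86 and 3.11 TPM) were at least 2-fold higher in the Ad mix library. Ccl21, the chemokine of lymphatic vessels (204 and 427 TPM), Ccl3 (12.2 and 30.7 TPM) and Ccl19 (2.98 and 7.08 TPM) were at least 2-fold higher in the Sy mix library. Of these 6 chemokines, Ccl12 and Ccl5 reached 5 TPM in the Ad mix library alone, and Ccl19 in the Sy mix library alone. Of 30 matrix protease and inhibitor genes at 5 TPM or more, 4 were past the mark, all higher in the Ad mix library, against 1.29% of all genes. They included Mmp11 (14.3 and 0.07 TPM, log2 ratio -3.84) and the neutrophil collagenase gene Mmp8 (7.68 and 2.25 TPM, -1.42). Both of these reached 5 TPM in the Ad mix library alone. The others were the macrophage elastase gene Mmp12 (23.7 and 10.1 TPM, -1.15) and Adam12 above. The cartilage-degrading protease genes Mmp13 (22.4 and 10.97 TPM) and Adamts5 (7.42 and 7.94 TPM) were short of it.

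**Figure D5:**
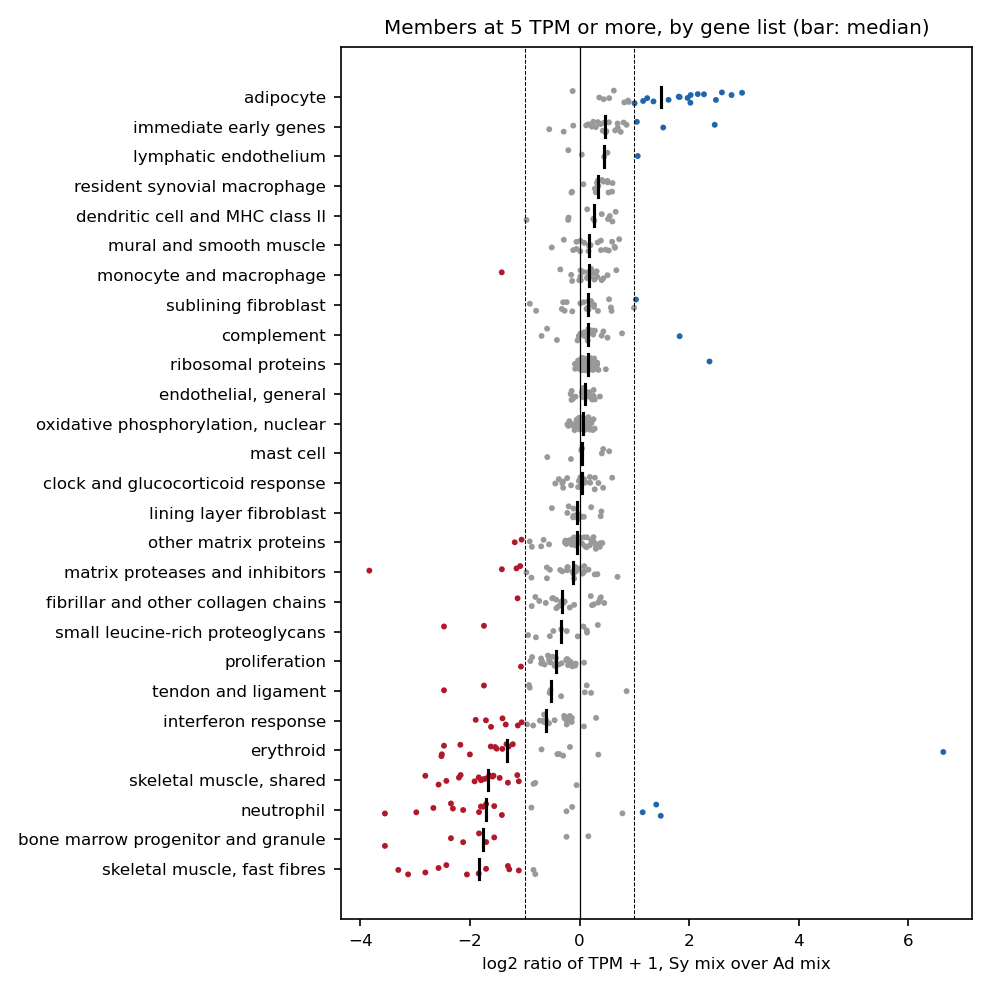
Log2 ratio of TPM + 1 (Sy mix over Ad mix) of each list member at 5 TPM or more in either PBS library; blue points are at least 2-fold higher in the Sy mix library, red points at least 2-fold higher in the Ad mix library, grey points neither, and black bars are list medians. The medians drawn run from -1.84 for fast-fibre muscle to 1.49 for adipocyte genes, and most medians lie between the dashed 2-fold lines.

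Some of the largest ratios belonged to rows that were listed at 0 in 1 PBS library. There were 21 such rows with 5 TPM or more in the other library, 14 at 0 in the Ad mix and 7 at 0 in the Sy mix library, and 12 of the 21 had only an identifier for a symbol. Romo1, a mitochondrial membrane protein, was listed at 0 in the Ad mix and at 56.6 TPM in the Sy mix library, and Natd1 at 25.3 TPM in the Ad mix library and at 0 in the other 3 libraries. No fold is given against such a 0. Rabif was listed at 0 and 20.8 TPM, while the row RGD1563962, a symbol that RefSeq gives as an older name of Rabif, was at 24.2 and 1.38 TPM, so the rows exchanged their levels. The ribosomal protein gene Rps14 stood at 106 and 556 TPM, the only one of 76 ribosomal genes past the mark, against 2.25% of all genes. The unnamed row LOC100909585 was at 356 and 6216 TPM. Without identifier rows and rows listed at 0, 68 genes were at least 2-fold higher in the Sy mix and 103 in the Ad mix library.

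At a ratio of 2, but not at a ratio of 4, the PBS libraries differed from each other about as often as the injected libraries did. Between the AdMSC and SyMSC libraries, 223 of 10100 genes at 5 TPM or more in either were past 2-fold (2.21%), 149 higher in the SyMSC library (1.48%) and 74 higher in the AdMSC library (0.733%). At a ratio of 4, 77 genes of the PBS pair (0.738%) and 31 of the injected pair (0.307%) were past it. The differences between these shares were not tested. Of the 100 genes higher in the Sy mix library, 76 were at 5 TPM or more in an injected library; 12 of the 76 were at least 2-fold higher in the SyMSC and 4 in the AdMSC library. Of the 135 genes higher in the Ad mix library, 88 were at that level; 30 of the 88 were at least 2-fold higher in the SyMSC and 8 in the AdMSC library. Adipocyte genes summed to 905 TPM in the AdMSC and 1147 TPM in the SyMSC library, against 1203 and 3829 TPM in the Ad mix and Sy mix libraries. Shared muscle genes summed to 337 and 381 TPM in the injected libraries, against 3045 and 1198 TPM in the PBS libraries.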

How the data were processed

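Gene expression was measured in 4 bulk libraries of rat synovium, 2 of them injected with PBS. Per the labels' protocols, RNA was captured with oligo-dT beads, primed with random hexamers, marked with dUTP and sequenced on a BGISEQ-500. The deposited values are TPM made by the authors, per the file header, with 2 decimals. HISAT2 2.0.4 and the build Rnor_6.0 are named without role in the submitters' processing notes; no source used here names the counting tool, the annotation or the use of strand. Since TPM is a share, a gain of abundant genes such as globins lowers all others, and depth is unknown.

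The table held 17899 rows; 5 rows with a repeated symbol were dropped in favour of the row with the higher mean, leaving 17894, of which 16715 gene IDs were found in RefSeq's gene table for GRCr8, used for names alone. Ratios are log2 of TPM + 1. Genes needed 5 TPM in the higher library and a ratio of 2. Python 3.11.15, numpy 2.4.6, pandas 2.3.3 and matplotlib 3.10.9 were used, and the counting was tested on simulated data. No p-value was computed, and nothing in the labels says whether the libraries came from separate animals.

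The members and the 52 gene lists (1267 entries, 1163 in the table, 15 of these through the RefSeq symbol of the gene ID) were chosen with earlier results of these data known. For 1 list, the mitochondrially encoded genes, no entry was found. Named genes are the 30 most abundant, the 20 highest and 20 lowest ratios with a symbol that is not an identifier, up to 6 abundant and 4 most different members of each list, and a fixed set that includes Prg4, Col2a1, Acan, Cd163, Mmp3, Adamts5, Il1b, Il6 and Tnf; not all are described. NEWGENE symbols were also treated as identifiers. Genes outside this rule (Acaca, Acsl1, Actn2, Adig, Agt, Aqp7, Ccl19, Clic5, Csf3r, Cxcr2, Dntt, Ifit3, Il1r2, Klf1, Krt5, Lipe, Lrrc15, Mmp13, Mx2, Myh7, Pax7, Per2, Plin1, Pparg, Prtn3, Racgap1, Rag1, Rbp4, Rhd, Stfa2, Tmem52, Vpreb1, Vsig4, RGD1563962, LOC100134871 and LOC100909585) were chosen after their values were seen, as was the set of 10 granule genes. The floor favours members that reached 5 TPM only in the library where they are high, so counts of members are descriptions. Alternatives were other scalings, floors, ratios and pseudocounts, and each PBS library alone.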

Additional observations from a re-analysis of the deposited data

How the results depend on the processing

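With a ratio of 2, the counts of genes higher in the Sy mix library (100) and genes higher in the Ad mix library (135) stayed within 1.5 times under median-ratio scaling (105 and 133), upper-quartile scaling (104 and 133), without the 7 globin rows (96 and 137), without these and the Hbbl1 row, a setting chosen after seeing the data (96 and 136), and with a pseudocount of 0.1 (118 and 153). They moved with the floor and the ratio: 183 and 215 with no floor or with a floor of 1 TPM, 55 and 70 with a floor of 20 TPM, 281 and 340 at a ratio of 1.5, and 37 and 40 at a ratio of 4. The 223 genes past the ratio between the injected libraries became 132 with a floor of 20 TPM, 762 at a ratio of 1.5 and 31 at a ratio of 4, alternatives for that pair that were chosen after seeing the data, as was leaving out identifier rows and rows listed at 0. Under median-ratio and upper-quartile scaling, without the 7 globin rows and with the other pseudocount, the medians of 44 gene lists kept their side of the 2-fold mark and, where past it, their direction. Of the named genes, 15 ratios in these alternatives crossed from short of the mark to past it, among them Gsn under median-ratio scaling (1.03), and 0 were reversed. Each PBS library alone gives the values printed for it. No paired analysis was possible because the labels give no replicate numbers and each side of the comparison is 1 library. Depth is unknown, so the error of values of a few TPM is unknown.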

Other observations

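Genes of the daily clock and of the glucocorticoid response stood at like levels in the PBS libraries. The log2 ratios of the 22 at 5 TPM or more lay between -0.44 and 0.60. None of the 22 was past 2-fold, against 2.25% of all genes, so a list of this size could hold none without standing apart. Dbp, a clock output gene, was at 413 TPM in the Ad mix and 405 TPM in the Sy mix library, Nr1d1, a repressor of the clock, at 107 and 106 TPM, and Per2 at 21.4 and 22.8 TPM. The glucocorticoid target Tsc22d3 was at 171 and 181 TPM.

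Transcripts of the Y chromosome were measured in both PBS libraries. Eif2s3y, a translation factor gene, stood at 36.6 and 33.1 TPM and the demethylase gene Kdm5d at 10.2 and 8.67 TPM in the Ad mix and Sy mix libraries, and the AdMSC and SyMSC libraries gave 55.05 and 55.2 TPM for the sum of the 4 Y genes in the table. Insulin-like growth factor genes were abundant and similar, with Igfbp7 at 2363 and 2917 TPM and Igf1 at 437 and 354 TPM. Complement genes summed to 7420 TPM in the Ad mix and 9541 TPM in the Sy mix library. Cfd, which also counts among the adipocyte genes, was the only one of 21 past 2-fold, against 2.25% of all genes.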
